A study of Danio rerio with 69 samples.

Results

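The genes gapdh, aldoca and eno1a encode enzymes of glycolysis, the pathway that breaks glucose down to pyruvate and yields ATP without oxygen. They were chosen by symbol: every probe set that the platform annotation names for 1 of the 3 genes was taken, with the control probe sets left out. Each gene had 1 such probe set, Dr.917.1.S1_at for gapdh, Dr.24074.1.A1_at for aldoca and Dr.4724.1.S1_at for eno1a, among 15502 tested probe sets and 8793 named genes. Their levels were measured in pineal gland and brain of zebrafish (Danio rerio) on 69 Affymetrix Zebrafish Genome Arrays, 1 array per biological replicate. Fish of 3, 5 and 10 days (called larval here), 3 months and 1 to 2 years (called adult here) were sampled by day and by night, and all had been kept at 28.5 °C with 14 h of light and 10 h of dark. The glands came from transgenic fish in which the pineal promoter of aanat2 drives green fluorescent protein (GFP), and were dissected by hand under that fluorescence. The brain samples were brain from which pineal and eyes had been taken away, so they hold all other brain regions together. The labels do not say whether the larval brain samples included other head tissue. The summed intensity of 8 muscle genes had a median of 39486 on larval brain arrays and 751.5 on adult brain arrays.

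The 20 groups held 2 to 5 arrays. At 3 days there were 3 arrays by day and 4 by night from each tissue. At 5 days there were 5 and 4 from pineal and 3 and 2 from brain, and at 10 days 4 and 4 from pineal and 3 and 4 from brain. Each group held 3 arrays at 3 months, and at 1 to 2 years 4 arrays from pineal or 3 from brain stood at each sampling time. The labels do not say how many fish went into a sample.

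In the pathway, aldolase splits a sugar bisphosphate into smaller sugar phosphates. The product of gapdh, glyceraldehyde phosphate dehydrogenase, then oxidises one of them and reduces NAD, and enolase makes phosphoenolpyruvate near the end of the pathway. Vertebrates carry several aldolases and enolases that differ in tissue. Aldolase C, encoded by aldoca, is the brain form and is strong in Purkinje cells of the cerebellum, eno1a encodes an alpha-enolase, the broadly used form, and gapdh is often taken as a reference gene on the assumption that its level is steady.

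Over the 5 ages, aldoca and gapdh were lower in pineal than in brain, 4.18-fold and 3.10-fold. For gapdh that mean joined opposite differences. It was 7.10-fold to 30.1-fold lower in pineal at the 3 larval ages and 3.03-fold and 2.60-fold higher in pineal at the adult ages. Muscle markers were also far lower in larval pineal than in larval brain, and their part in the larval gapdh difference was not tested. For eno1a the tissue difference was 2.83-fold and 2.86-fold at the adult ages and below the 2-fold limit at the larval ages. By night eno1a was 1.51-fold lower than by day in each tissue, but in brain the call was lost under 4 settings, at -0.30 on the log2 scale without the arrays of high control ratio. In bulk tissue, fewer cells of a type and less RNA per cell cannot be told apart.

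The deposited value is 1 linear intensity per probe set and array, scaled by the authors to a common target. A log2 level is the log2 of that intensity plus 16 after quantile normalization, and every difference below is a difference of such levels with its standard error. A probe set was called different between tissues or ages at an adjusted p below 0.05 and at least 2-fold, and between night and day at an adjusted p below 0.05. All adjusted p-values are from limma. Where the arrays of a gene are said to overlap or not, the share of all probe sets that did so was not counted. The pineal markers aanat2 and exorh, an enzyme of melatonin synthesis and the pineal opsin, had medians of 9.69 and 8.99 in pineal and 6.44 and 5.56 in brain on the log2 scale. For both genes the ranges overlapped: the lowest pineal array lay below the highest brain array, at 7.36 for aanat2 and 7.24 for exorh. The neuronal gene gad2 was present in both tissues, with medians of 9.89 in pineal and 11.89 in brain. The neuronal gene snap25b, at 13.05 and 13.04, did not separate the tissues. The myelin gene mbpa had medians of 7.23 in pineal and 12.46 in brain, also with overlapping ranges. Signal from the 3' end of GAPDH is set against its 5' end by control probe sets, and degraded RNA can raise that ratio. It lay above 3 on 10 of 34 arrays by day and 1 of 35 by night. Those arrays were 6 of 15 brain arrays by day, 4 of 19 pineal arrays by day and 1 of 19 pineal arrays by night.

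The aldolase gene aldoca was lower in pineal than in brain at every age. At 3 days aldoca had intensities of 6, 40 and 12 in pineal by day and 58, 52, 106 and 21 by night. The brain arrays gave 330, 306 and 327 by day and 170, 150, 93 and 283 by night. The ranges touched only where 1 pineal night array passed the lowest brain night array. At 5 days aldoca had 188, 178, 52, 9 and 46 in pineal by day and 181, 119, 67 and 43 by night. Brain values were 546, 624 and 270 by day and 509 and 357 by night, and all brain arrays lay above all pineal arrays. At 10 days aldoca had 16, 116, 5 and 66 in pineal by day and 41, 122, 112 and 92 by night. The brain values were 230, 264 and 113 by day and 444, 242, 211 and 238 by night, so only the lowest brain array fell within the pineal range.

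At 3 months aldoca had 296, 242 and 128 in pineal by day and 135, 721 and 266 by night. In brain it had 356, 929 and 312 by day and 530, 878 and 670 by night. The pineal night array at 721 lay inside the brain range, and the others lay below it. At 1 to 2 years aldoca had 4, 10, 87 and 86 in pineal by day and 82, 94, 213 and 263 by night. The brain arrays gave 1339, 1300 and 572 by day and 470, 340 and 564 by night, with no overlap between the tissues. On 29 of 38 pineal arrays and 3 of 31 brain arrays aldoca lay below the median of all probe sets on that array, so its pineal level is that of a dim probe set and the size of its differences depends on the added constant.

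The level of aldoca in pineal minus that in brain was -2.06 ± 0.18 over all ages (adjusted p = 3.14e-15). At the single ages it was -2.15 ± 0.40 at 3 days (adjusted p = 5.73e-05), -2.10 ± 0.42 at 5 days (adjusted p = 0.00023), -1.62 ± 0.39 at 10 days (adjusted p = 0.00359), -1.28 ± 0.43 at 3 months (adjusted p = 0.0163) and -3.17 ± 0.40 at 1 to 2 years (adjusted p = 1.1e-09). All were called lower in pineal. The 3-month call was lost without brain day replicate 2, at -1.05 and an adjusted p of 0.0741, and without pineal night replicate 1, at -1.00 and 0.0871. It was also lost without the arrays of GAPDH control ratio above 3, at -1.02 (adjusted p = 0.133), and with an added constant of 1, at -1.35 (adjusted p = 0.0718). Over all probe sets, limma called 3.28% lower in pineal over all ages. For 3, 5 and 10 days the shares were 2.98%, 3.35% and 1.99%, and for both adult ages 10.3%. Whether the tissue difference in aldoca varied with age was not shown, with limma's F-test at an adjusted p of 0.0721. It passed with array weights (adjusted p = 0.00773) and with an added constant of 64 (adjusted p = 0.0327). It also passed with blocks for replicate number, fixed (adjusted p = 0.00463) or random (adjusted p = 0.0391), though pairing by number was taken as not given. Of all probe sets 27.9% passed that test.

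From larvae to adults aldoca rose in brain by 1.04 ± 0.28 (adjusted p = 0.00183, 2.05-fold), just past the fold limit. Without any 1 of 6 brain arrays the difference fell to between 0.93 and 0.99, under that limit, with an adjusted p of at most 0.00757. Without the 11 arrays of GAPDH control ratio above 3 it was 0.76 (adjusted p = 0.0809), so that the p threshold was missed too. Among brain arrays by day, aldoca had a median intensity of 776.5 on the 6 of high ratio and 306 on the other 9. Those 9 held only 1 array of 3 months and 1 of 1 to 2 years, so ratio and age cannot be told apart here. In pineal aldoca was higher in adults by 0.78 ± 0.25 (adjusted p = 0.00846), a 1.71-fold difference that was not called. The change in pineal minus the change in brain was -0.26 ± 0.37 (adjusted p = 0.618). Of all probe sets 4.99% were called higher and 6.61% lower in adult brain, and 8.46% higher and 7.13% lower in adult pineal. Of the pineal calls 54.2% were higher, and 74.9% without scaling between arrays.

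By night aldoca was higher than by day in pineal, by 0.86 ± 0.24 over the ages (adjusted p = 0.0337, 1.82-fold). The difference of the group means was positive at 5 of 5 ages, from 0.29 at 5 days to 1.78 at 1 to 2 years, where the 3 highest pineal arrays were all night arrays. The share of all probe sets positive at every age was not counted. At no single age was the difference called by limma, and the lowest adjusted p was 0.121, at 1 to 2 years. At that age the myelin gene mbpa was called higher by night in pineal, by 2.59 ± 0.54 (adjusted p = 0.00653), and cd59a stood at 1.24 (adjusted p = 0.559). The neuron and muscle lists had medians of 0.71 and 0.69 there, with 0 of 8 called in each. Genes of the cerebellum and Purkinje cell list described below went both ways there. The values were 0.44 for pvalb7, 0.15 for zic1, -0.30 for ca8 and -1.06 for neurod1, none of them called. The part of these cell types in the aldoca night difference was not tested. For the pineal difference over the ages, the adjusted p passed 0.05 when any 1 of 13 arrays was left out, to at most 0.109. It was 0.0853 with an added constant of 64, 0.14 in a fit of the pineal arrays alone and 0.0864 without the 3 pineal arrays of raised muscle markers described below. In brain aldoca stood at -0.23 ± 0.27 (adjusted p = 0.841), lower at 3 of 5 ages and higher at 2 of 5. At 3 days all brain night arrays, at 93 to 283, lay below the day arrays, at 306 to 330. So they did at 1 to 2 years, at 340 to 564 against 572 to 1339, and the ranges overlapped at the other ages. These differences of group means, -0.88 and -1.07, were not tested at the single ages. In brain at 1 to 2 years, day replicates 1 and 2 had GAPDH control ratios of 13.8 and 17.2 and were the higher day arrays. Day replicate 3, at 572, lay close to the highest night array, at 564. Without the arrays of ratio above 3, the night minus day difference of aldoca in brain over the ages was 0.093. The part of the ratio in these differences was not tested. The night difference in pineal minus that in brain was 1.09 ± 0.36, with an adjusted p of 0.545, so the tissues were not shown to differ. By night 1.34% of all probe sets were higher and 1.3% lower in pineal, and 0.129% different between the tissues in that respect (80.0% of those calls higher, and 60.0% under median centring).

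**Figure D1:**
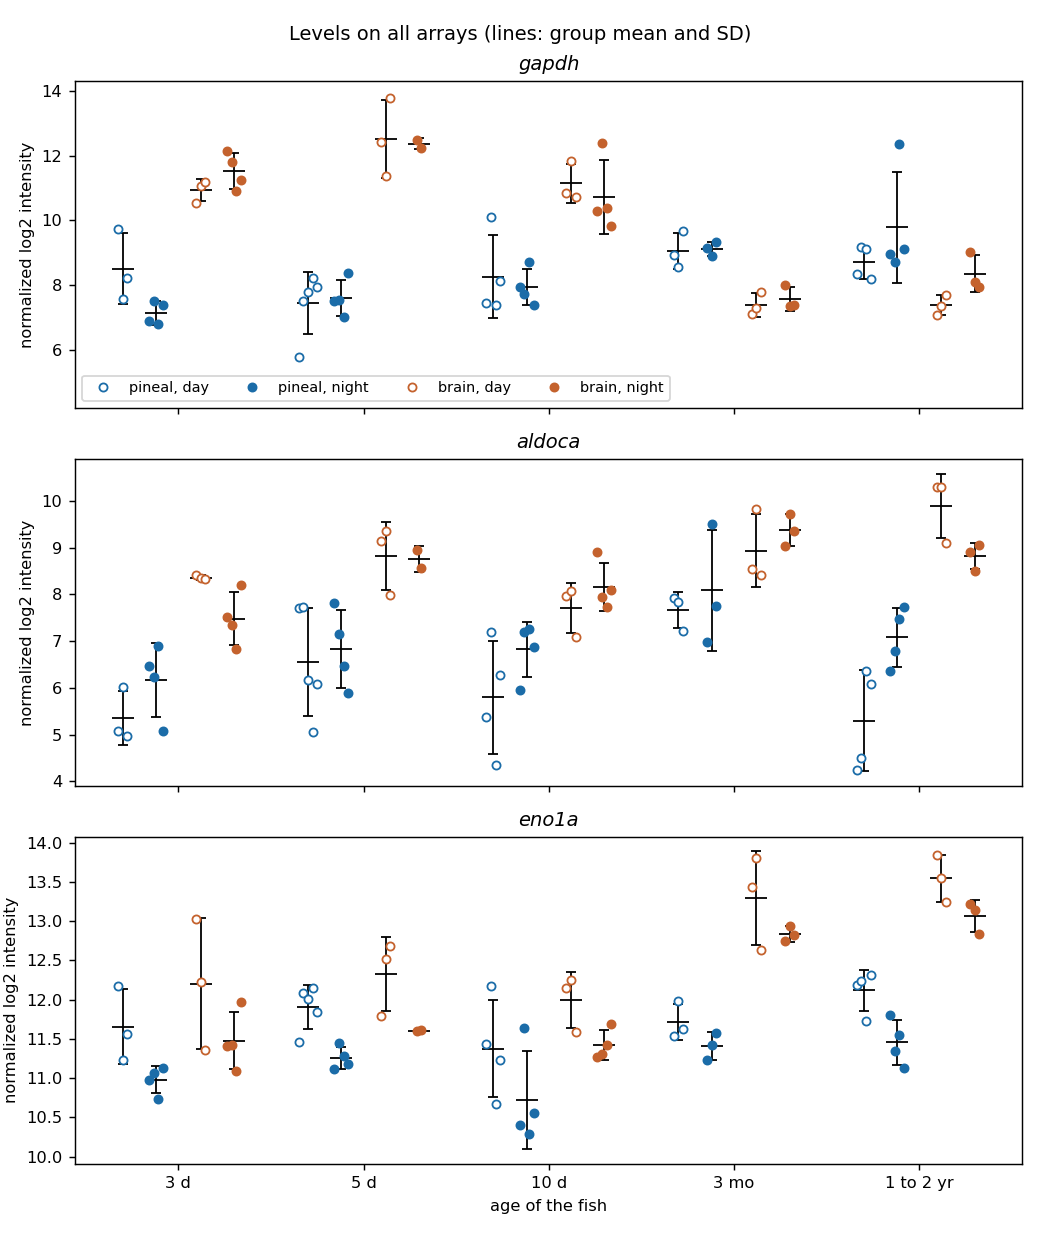
Normalized log2 intensity of gapdh, aldoca and eno1a on all 69 arrays by age of the fish, with open points by day, filled points by night, and lines at the group mean with its SD. The gapdh points of larval brain lie far above those of larval pineal, and the order of the tissues is turned at the adult ages, while aldoca lies higher in brain throughout.

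For gapdh the tissues were furthest apart in larvae. At 3 days gapdh had intensities of 855, 161 and 284 in pineal by day and 85, 154, 98 and 157 by night. Brain values were 1464, 2169 and 2244 by day and 4534, 3501, 1891 and 2333 by night. All 7 brain arrays lay above all 7 pineal arrays. At 5 days gapdh had 25, 155, 193, 256 and 225 in pineal by day and 139, 160, 105 and 304 by night. In brain it had 5643, 2597 and 13450 by day and 5073 and 4618 by night, and the lowest brain array was above the highest pineal array. At 10 days gapdh had 147, 996, 146 and 266 in pineal by day and 222, 188, 384 and 136 by night. The brain arrays had 1889, 3610 and 1733 by day and 1296, 5287, 1256 and 888 by night, and the pineal array at 996 was the only one inside the brain range.

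In adults the order was turned. At 3 months gapdh had 498, 388 and 808 in pineal by day and 539, 482 and 620 by night. The brain arrays gave 111, 126 and 178 by day and 250, 131 and 139 by night, below every pineal array. At 1 to 2 years gapdh had 323, 560, 578 and 326 in pineal by day and 486, 406, 4572 and 580 by night. Brain values were 99, 129 and 195 by day and 518, 246 and 274 by night. The ranges overlapped through 1 brain night array at 518, and 1 pineal night array at 4572 stood far above its group.

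The level of gapdh in pineal minus that in brain was -3.40 ± 0.41 at 3 days (adjusted p = 1.79e-09), -4.91 ± 0.43 at 5 days (adjusted p = 5.2e-14) and -2.83 ± 0.40 at 10 days (adjusted p = 1.92e-07). It was 1.60 ± 0.44 at 3 months (adjusted p = 0.00305) and 1.38 ± 0.41 at 1 to 2 years (adjusted p = 0.00623). The adult differences ran with those of 10.9% of all probe sets called higher in pineal at 3 months and 10.9% at 1 to 2 years. At 3, 5 and 10 days, where gapdh was lower in pineal, lower calls took 2.98%, 3.35% and 1.99% of all probe sets. Higher calls took 1.79% at 3 days, 1.83% at 5 days and 1.65% at 10 days. Scaling moved the split of calls: higher calls were 51.3% of all calls at 3 months and 51.5% at 1 to 2 years, and 69.4% and 69.8% without scaling between arrays, and at 10 days they were 45.4% and 31.0%. Without pineal night replicate 3 of 1 to 2 years, the array at 4572, the difference at that age was 0.95 (adjusted p = 0.0451), under the 2-fold limit. Over all ages the difference was -1.63 ± 0.19 (adjusted p = 4.21e-11), beside 3.28% of all probe sets called lower in pineal and 2.51% called higher. Limma's F-test found that the tissue difference in gapdh varied with age (F = 48.2, adjusted p = 5.01e-16), a test that 27.9% of all probe sets passed.

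Between larvae and adults gapdh moved in opposite directions in the tissues. In brain it fell by 3.85 ± 0.28 on the log2 scale, 14.5-fold (adjusted p = 2.11e-18), and its difference ranked 57 from the lowest of 15502 probe sets. In pineal it rose by 1.35 ± 0.26, 2.54-fold (adjusted p = 1.29e-05). The difference of these changes was 5.20 ± 0.38 (adjusted p = 7.09e-18), in a test that called 12.3% of probe sets higher and 10.5% lower (54.1% of calls higher, and 77.0% without scaling between arrays). Night and day were not shown to differ in gapdh, at -0.08 ± 0.25 in pineal (adjusted p = 0.94) and 0.23 ± 0.28 in brain (adjusted p = 0.839). In pineal at 3 days the night arrays, at 85 to 157, all lay below the day arrays, at 161 to 855. That difference, -1.37, did not pass the test (adjusted p = 0.248). In brain at 1 to 2 years the night arrays, at 246 to 518, all lay above the day arrays, at 99 to 195. That difference, 0.98, was not tested at the single age. Of those day arrays, replicates 1 and 2 were the lower ones and had GAPDH control ratios of 13.8 and 17.2. Day replicate 3, at 195, also lay below the lowest night array, at 246. Without the arrays of ratio above 3, the night minus day difference of gapdh in brain over the ages was -0.067.

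**Figure D2:**
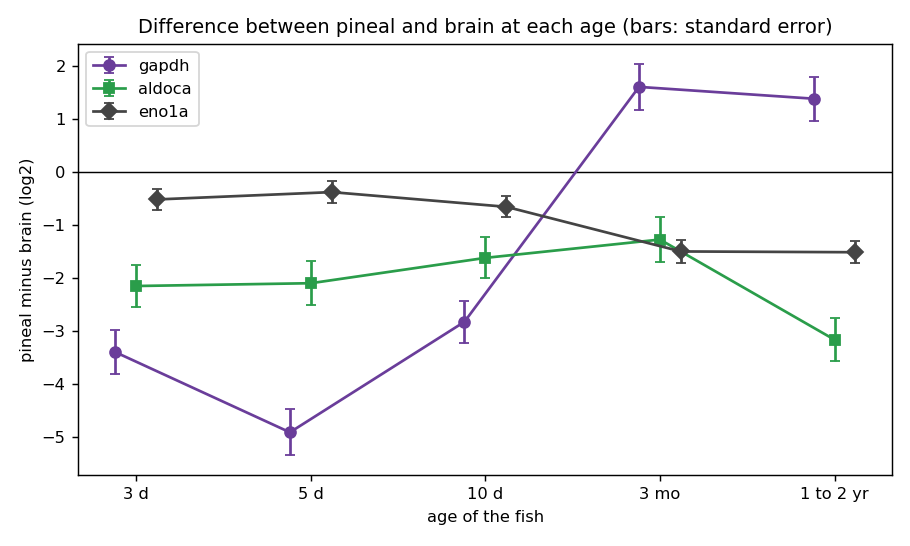
Log2 difference of pineal minus brain at each age for gapdh, aldoca and eno1a, with standard errors from limma as bars. The line of gapdh crosses 0 between 10 days and 3 months, from -2.83 to 1.60, and those of aldoca and eno1a stay below 0 at all 5 ages.

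Markers of muscle moved with the larval gapdh difference. Of 10 listed muscle genes 8 were measured (acta1a, atp2a1, neb, ckma, ckmb, mylpfa, tnnt3b and pvalb2), and 8 of 8 were called lower in pineal at 3, 5 and 10 days, with median differences of -5.38, -5.29 and -4.33. Lower calls took 2.98%, 3.35% and 1.99% of all probe sets at these ages. The summed normalized intensity of the 8 genes was 7810 to 89788 on larval brain arrays (median 39486) and 291 to 14392 on larval pineal arrays (median 618). In adults it was 437 to 1191 in brain (median 751.5) and 419 to 7954 in pineal (median 775.5), and 0 of 8 were called different between the adult tissues. Of all probe sets 10.9% were called higher and 10.3% lower in pineal at each adult age. In brain, 8 of 8 muscle genes fell from larvae to adults, with a median of -4.89 against 0.05 over all probe sets, of which 6.61% were called lower. The part of muscle RNA in the larval gapdh difference, and in its fall in brain, was not tested. All adult brain sums lay inside the adult pineal range, which reached higher, and the part of muscle RNA in the adult gapdh difference was not tested.

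Single pineal arrays showed the same pairing of values in part. A muscle sum above 5000 was found on 3 pineal arrays. Day replicate 1 of 3 days, at 14392, had the highest gapdh intensity of its group, 855, and night replicate 3 of 1 to 2 years, at 7841, was the array at 4572. Night replicate 3 of 3 months, at 7954, had 620, close to the other arrays of its group. Without these 3 arrays, an alternative chosen after the values were seen, gapdh was still called higher in pineal at 3 months, at 1.55 (adjusted p = 0.00184). For 1 to 2 years it stood at 0.95 (adjusted p = 0.0394). The rise in pineal from larvae to adults was 1.21 (adjusted p = 3.01e-05).

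**Figure D3:**
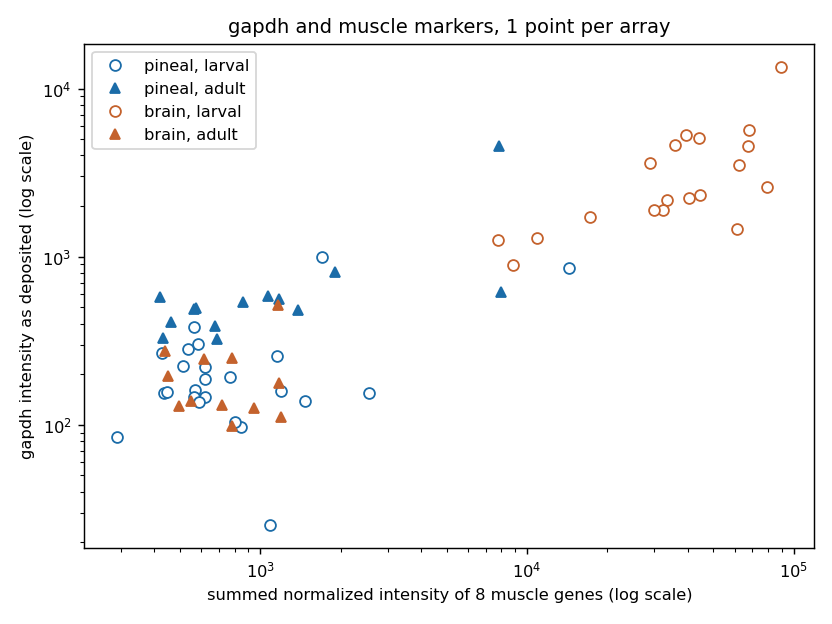
Deposited gapdh intensity against the summed normalized intensity of 8 muscle genes on each of the 69 arrays, both on log scales, with circles for larvae and triangles for adults. Larval brain arrays lie at the upper right, from 7810 to 89788 on the muscle axis, and adult pineal arrays lie mostly above adult brain arrays on the gapdh axis.

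Skin markers, as RNA that a hand-dissected gland could carry, had higher median sums in pineal than in brain at every age. The 5 measured genes of 6 listed (krt4, krt5, krt91, icn2 and icn) summed to 30267 to 112366 in adult pineal and 1819 to 12436 in adult brain, and 5 of 5 were called higher in pineal at both adult ages. In larvae the sums were 20106 to 83188 in pineal (median 61032.5) and 9856 to 56057 in brain (median 43944), and at most 1 of 5 was called higher at a larval age. Of all probe sets 10.9% were called higher at each adult age, and 1.79%, 1.83% and 1.65% at 3, 5 and 10 days. The gene icn went the other way in larvae, at -0.40, -0.65 and -1.21 in order of age. At 10 days it was called lower in pineal (adjusted p = 0.00049). The part of skin RNA in the gapdh levels was not tested.

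Neurons, Purkinje cells, myelin and astroglia were followed by their own lists. The summed level of the neuron list (8 of 9 measured) was 15332 to 37214 in larval pineal and 19344 to 42030 in larval brain, against 11348 to 33101 in adult pineal and 68256 to 88349 in adult brain. At both adult ages 7 of 8 neuron genes were called lower in pineal, and at 3, 5 and 10 days 2, 1 and 2. For these and the lists that follow, lower calls took 10.3% of all probe sets at each adult age. At 3, 5 and 10 days they took 2.98%, 3.35% and 1.99%. The cerebellum and Purkinje cell list (pvalb7, ca8, zic1 and neurod1) summed to 8344 to 17154 in larval pineal and 5329 to 13786 in larval brain. In adults it summed to 2055 to 10390 in pineal and 8229 to 20533 in brain. At 1 to 2 years 4 of 4 were called lower in pineal. At 3 months pvalb7 (-2.78) and ca8 (-1.15) were called lower, and zic1 (-0.62) and neurod1 (-0.88) stayed under the 2-fold limit. In larvae the members went both ways. There pvalb7 was called lower in pineal at all 3 ages, by -2.71 to -2.20, and ca8 at 10 days (-1.24), while neurod1 was called higher at 3 days (1.11). The myelin genes mbpa and cd59a, the 2 measured of 5 listed, were both called lower in pineal at all 5 ages, with medians of -4.58, -4.68, -4.47, -3.15 and -3.59 in order of age. The astroglia list (glula, slc1a2b, slc1a3a, fabp7a, gfap and cyp19a1b) summed to 18525 to 36824 in larval pineal and 17475 to 28284 in larval brain. In adults it summed to 12668 to 28420 in pineal and 41321 to 49452 in brain. The part of these cell types in the tissue differences of aldoca and eno1a was not tested.

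The enolase gene eno1a differed between tissues mainly in adults. At 3 days eno1a had intensities of 4905, 2421 and 3019 in pineal by day and 2062, 2148, 1683 and 2183 by night. In brain it had 8483, 4895 and 2521 by day and 2698, 2683, 2192 and 4115 by night. The tissues overlapped widely. At 5 days eno1a had 2836, 4761, 4584, 5024 and 3648 in pineal by day and 2363, 2872, 2625 and 2237 by night. The brain arrays gave 3582, 6258 and 5907 by day and 3046 and 3196 by night, again within reach of the pineal arrays. At 10 days eno1a had 2885, 5402, 1603 and 2387 in pineal by day and 1352, 3314, 1258 and 1531 by night. Brain values were 4551, 4727 and 3203 by day and 2572, 2534, 2676 and 3312 by night. Most pineal arrays lay below that range, with those at 2885 and 3314 inside it and that at 5402 above it.

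At 3 months eno1a had 2543, 3783 and 3103 in pineal by day and 2291, 2628 and 2656 by night. In brain it had 8882, 11254 and 5711 by day and 6086, 6533 and 6039 by night. No pineal array reached the lowest brain array. At 1 to 2 years eno1a had 4642, 4788, 3081 and 4624 in pineal by day and 3490, 2517, 2634 and 1927 by night. The brain arrays had 9920, 9711 and 6797 by day and 8008, 7848 and 5508 by night, all above the pineal arrays.

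The level of eno1a in pineal minus that in brain was -1.50 ± 0.22 at 3 months (adjusted p = 5.46e-08) and -1.52 ± 0.20 at 1 to 2 years (adjusted p = 5.32e-09), both called. At 3 and 5 days it was -0.52 ± 0.20 (adjusted p = 0.124) and -0.38 ± 0.21 (adjusted p = 0.336). At 10 days it was -0.66 ± 0.20 (adjusted p = 0.0293), and over all ages -0.92 ± 0.09 (adjusted p = 4.57e-13), a 1.89-fold difference, and both stayed under the 2-fold limit. Of all probe sets 10.3% were called lower in pineal at each adult age. The variation of the eno1a tissue difference with age passed limma's F-test (F = 6.98, adjusted p = 0.000734), which 27.9% of all probe sets passed. From larvae to adults eno1a rose in brain by 1.35 ± 0.14 (adjusted p = 1.89e-12, 2.54-fold), beside 4.99% of all probe sets called higher. In pineal the difference was 0.36 ± 0.13 (adjusted p = 0.0166), not called, and -0.11 under median centring. The change in pineal minus that in brain was -0.99 ± 0.19 (adjusted p = 1.72e-05), which at 1.98-fold was just short of the fold limit.

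Night levels of eno1a were below day levels in 10 of 10 pairs of groups. The share of all probe sets with the same sign in every pair was not counted. In pineal the night minus day differences of group means were -0.67, -0.65, -0.66, -0.31 and -0.66 from 3 days to 1 to 2 years, and in brain -0.73, -0.73, -0.57, -0.45 and -0.48. Over the ages they came to -0.59 ± 0.12 in pineal (adjusted p = 0.00156) and -0.59 ± 0.14 in brain (adjusted p = 0.0119). At no single age was the pineal difference called by limma, with the lowest adjusted p at 0.249 (3 days). The brain differences were not tested at the single ages. In pineal every night array lay below every day array at 3 and 5 days on the normalized scale, and the ranges overlapped at the other ages. In brain it was so at 5 days and at 1 to 2 years, again with overlap at the other ages. At 5 days the brain groups held only 3 arrays by day and 2 by night. The share of all probe sets that separated in this way was not counted. The difference between the tissues was 0.00 ± 0.18 (adjusted p = 1). Over all probe sets 0.374% were higher and 0.548% lower by night in brain.

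Arrays with a GAPDH control ratio above 3 were nearly all day arrays, and eno1a and aldoca were often high on them. In 6 of the 9 groups that held such an array, one of them had the group's highest eno1a level, and in 6 of 9 the highest aldoca level. For gapdh it was 2 of 9. In brain by day, the group's lowest gapdh level was on such an array at 3 days, 5 days, 3 months and 1 to 2 years. All groups with such an array held 3 to 5 arrays, and those of adult brain by day had 2 of 3 at high ratio. Part of such counts thus arises without any link. Without those 11 arrays the night minus day difference of eno1a was -0.53 in pineal (adjusted p = 0.000475) and -0.30 in brain (adjusted p = 1). With the log2 ratio as a covariate it was -0.54 (adjusted p = 0.000302) and -0.32 (adjusted p = 0.604). In brain the call was also lost without scaling between arrays, at -0.54 (adjusted p = 0.0515), and under median centring, at -0.55 (adjusted p = 0.114). The pineal call was kept under each of these 4 settings, at -0.62 (adjusted p = 0.00176) without scaling and -0.63 (adjusted p = 0.00712) under median centring. Whether the ratio itself moved eno1a or gapdh in brain was not tested.

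**Figure D4:**
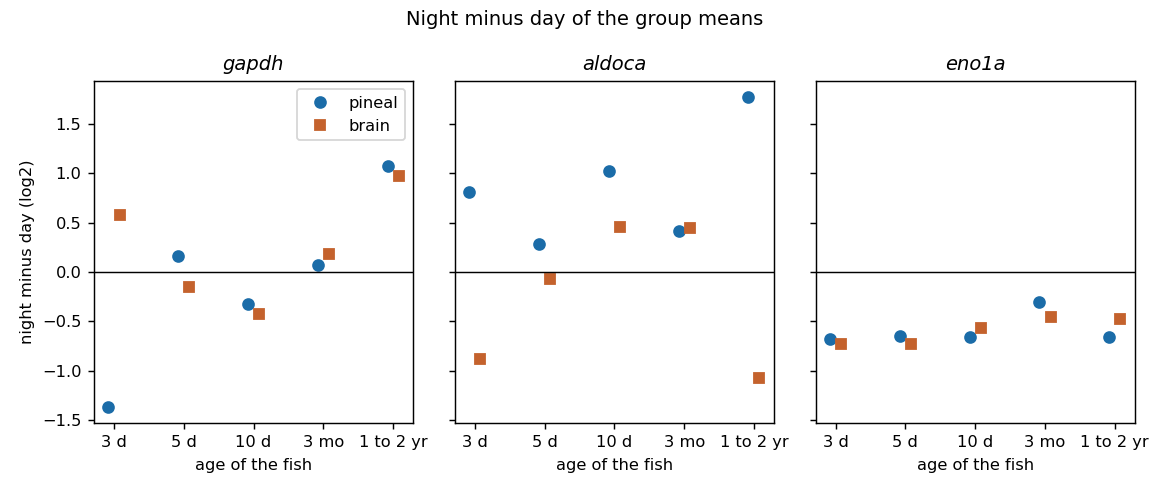
Night minus day of the group means, on the log2 scale, at each age in pineal (circles) and brain (squares) for gapdh, aldoca and eno1a. All 10 points of eno1a lie below 0, from -0.73 to -0.31, the pineal points of aldoca lie above 0, and those of gapdh lie on both sides.

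Ordered from the highest to the lowest of the 20 group means, gapdh ran from 12.51 ± 1.21 (SD, n = 3) in brain at 5 days by day to 7.14 ± 0.36 (SD, n = 4) in pineal at 3 days by night. The 6 larval brain groups came first, then the 4 adult pineal groups, and adult brain was mixed with larval pineal below them. Of 19 gaps between neighbours in that order, 1 was larger than the larger of the 2 SDs, that between brain at 5 days by night and brain at 3 days by night (0.85). For aldoca the order ran from 9.89 ± 0.69 (SD, n = 3) in brain at 1 to 2 years by day to 5.30 ± 1.08 (SD, n = 4) in pineal of the same age and time. The first 8 groups were brain groups, and 1 gap of 19 passed the SD, that below brain at 5 days by night (0.40). For eno1a the order ran from 13.54 ± 0.30 (SD, n = 3) in brain at 1 to 2 years by day to 10.72 ± 0.62 (SD, n = 4) in pineal at 10 days by night. The 4 adult brain groups came first, and 3 of 19 gaps passed the SD, of which the gap below the adult brain groups was 0.51. Other neighbours did not differ beyond their spread.

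Over the same 20 group means, the members were not alike. Pearson's r was 0.65 between aldoca and eno1a, 0.23 between gapdh and aldoca and -0.15 between gapdh and eno1a. The 5 named genes of highest r with gapdh were srl (0.96), myl10 (0.95), ckmb (0.95), eno3 (0.94) and actc1b (0.94), which encode sarcalumenin, a myosin light chain, a creatine kinase on the muscle list above, the muscle enolase and an actin. With aldoca they were grik6 (0.92), the parvalbumin gene pvalb7 (0.90), the contactin gene cntn1b (0.89), the neuroplastin gene nptna (0.89) and the kinase gene dapk3 (0.89). With eno1a they were pgk1 (0.95), gpia (0.94), hspa4l (0.93), mdh1aa (0.93) and rock2a (0.89). Of these, pgk1 and gpia encode phosphoglycerate kinase and glucose phosphate isomerase, and mdh1aa a malate dehydrogenase. The group means share arrays, normalization and tissue, so these values describe likeness over 20 points.

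The rest of the pathway and its neighbours was read from a list of 54 genes, of which 38 were measured. Over all ages 1 of 38 was called higher and 5 lower in pineal, beside 2.51% and 3.28% of all probe sets, and the median difference was -0.35 against 0.02 over all probe sets. The enolase gene eno1b was higher, by 1.15 ± 0.11, the opposite direction to eno1a. Lower were the muscle aldolase gene aldoab (-2.14), the muscle mutase gene pgam2 (-1.75), the glucose transporter gene slc2a3a (-1.30), the lactate dehydrogenase gene ldhbb (-1.17) and pgk1 (-1.06).

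In larvae 1 of 38 was called higher and 4 lower at 3 days, beside 1.79% and 2.98% of all probe sets. At 5 days 0 were higher and 5 lower, beside 1.83% and 3.35%, and at 10 days 1 and 3, beside 1.65% and 1.99%. Genes of muscle forms led them: aldoab stood at -3.53, -4.28 and -2.81 at the 3 ages, pgam2 at -2.57, -2.42 and -1.97, and eno3, the muscle enolase gene, at -1.91, -2.00 and -1.31. The other calls were slc2a3a (-1.05) and eno1b (1.00) at 3 days, slc2a2 (-1.85) and fbp1b (-1.60) at 5 days and eno1b (1.19) at 10 days. The transporter gene slc2a2 and the phosphatase gene fbp1b are known from liver and gluconeogenesis.

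In adults 7 of 38 were higher and 11 lower in pineal at 3 months, and 6 higher and 10 lower at 1 to 2 years, beside 10.9% and 10.3% of all probe sets at each age. The 8 largest differences at 3 months were fbp1a (2.19), slc2a3a (-2.10), slc2a2 (1.81), pgk1 (-1.66), ldhbb (-1.61), eno1b (1.58), the triose isomerase gene tpi1b (-1.54) and the monocarboxylate transporter gene slc16a3b (1.42). At 1 to 2 years they were slc2a3a (-2.21), fbp1a (2.01), ldhbb (-1.89), pgk1 (-1.70), eno1b (1.51), the phosphofructokinase gene pfkpa (-1.48), slc16a3b (1.46) and eno3 (1.43). Members of a gene pair parted in adults: tpi1a was higher in pineal by 1.02 and 1.25 at the 2 ages and tpi1b stood at -1.54 and -1.19. The hexokinase gene hk2 was higher by 1.09 and 1.11 and hk1 stood at -1.11 and -1.17. The list's median was -0.27 at 3 months and -0.30 at 1 to 2 years, against -0.05 and -0.03 over all probe sets. Under median centring the counts at 3 months were 4 higher and 12 lower, and without scaling 9 and 9, with no called gene changing sign.

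From larvae to adults 3 of 38 rose in pineal, eno1b by 2.25 ± 0.15, tpi1a by 1.90 ± 0.14 and the mutase gene pgam1a by 1.01 ± 0.14, and 0 fell, beside 8.46% and 7.13% of all probe sets. In brain 9 rose and 8 fell, beside 4.99% and 6.61%. The 8 largest changes in brain were aldoab (-2.97), fbp1a (-2.50), eno3 (-2.26), pck2 (-1.77), pck1 (-1.68), pgam2 (-1.62), slc2a2 (-1.61) and eno1b (1.59), of which pck1 and pck2 encode enzymes of gluconeogenesis. Between the tissues 9 changes were higher in pineal and 4 lower, beside 12.3% and 10.5%, led by aldoab (3.51), eno3 (3.04) and fbp1b (2.13). The gapdhs gene, the paralog of gapdh, went the other way from it: its level in pineal minus brain was -1.29 at 3 months and -1.27 at 1 to 2 years, both called.

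By night 1 of 38 was higher in pineal, the pyruvate kinase gene pklr by 0.98 ± 0.22, and 4 were lower, pgk1 (-0.59), the lactate dehydrogenase gene ldha (-0.56), gpia (-0.50) and pkma (-0.32), beside 1.34% and 1.3% of all probe sets. All 4 of these calls at lower levels were lost under median centring and without the 3 pineal arrays of raised muscle markers, and 1 was left without the arrays of high control ratio. In brain 0 of 38 were called, with pgk1 at -0.47 (adjusted p = 0.239) and gpia at -0.45 (adjusted p = 0.153).

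**Figure D5:**
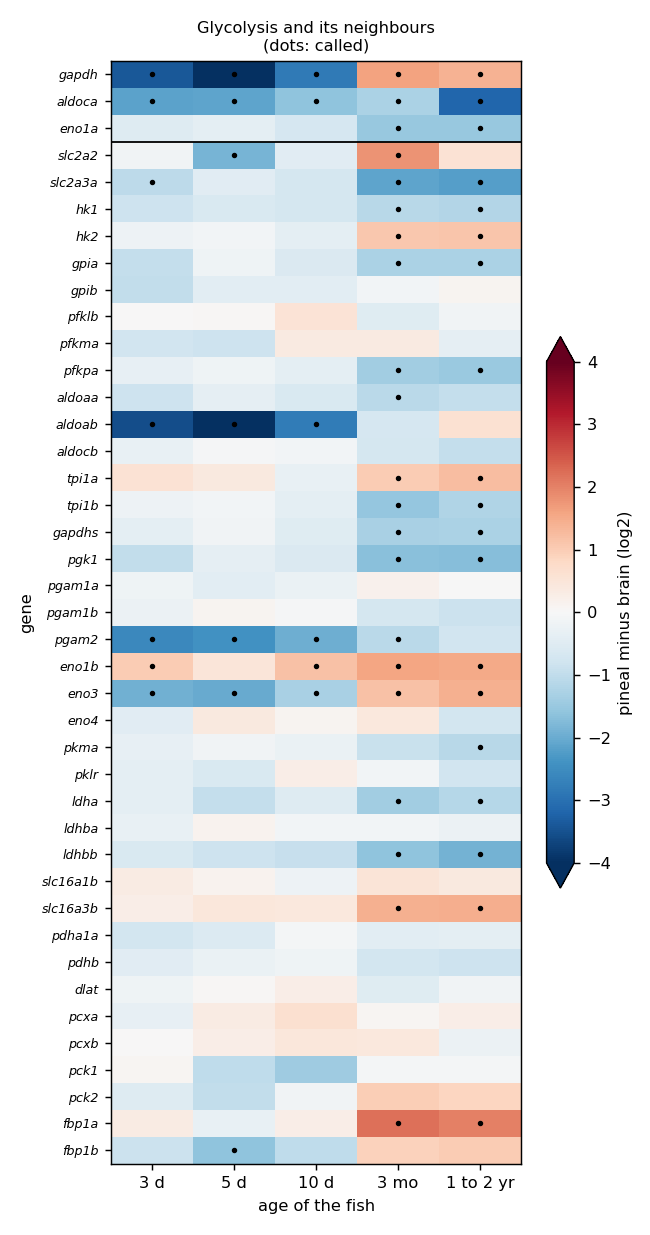
Pineal minus brain, on the log2 scale, at 5 ages for gapdh, aldoca, eno1a and 38 other genes of glycolysis and its neighbours, with dots where limma called the difference. Muscle forms such as aldoab and pgam2 share the larval blue of gapdh, and colours in the adult columns point both ways.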

How the data were processed

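Gene expression was measured in zebrafish pineal gland and brain on 69 1-colour arrays. The authors deposited linear intensity values for 15617 probe sets on each array. Trimmed of 2% at either end, array means were 500.1 to 500.2, so the deposited intensity had been scaled on each array; the algorithm and background correction are not given in the sources used here. Median intensity was 113.2 to 220.8, and the number of arrays limits the precision.

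From these values log2(intensity + 16) was computed and, since array medians ranged over 0.869, brought to common quantiles. Leaving out 115 control probe sets, 15502 were tested. Of these, 10795 had 1 gene symbol, 135 several and 4572 none in the platform annotation. Limma 3.58.1 in R 4.3.3 fitted 20 group means with a trend (residual degrees of freedom 49, prior 14.3). Benjamini-Hochberg adjustment ran over all 15502 probe sets. The p-values measure the spread between labelled biological replicates. The steps were tested on simulated data.

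Alternatives were no scaling, median centring, constants of 1 and 64, a filter on dim probe sets, fits of the compared arrays alone, blocks for replicate number, the GAPDH control ratio as covariate or limit, array weights and leaving out each array. The members and lists were chosen with earlier results of these data known. Other pathway genes were named where called, at most 8 of largest change per comparison; gene pairs and gapdhs were picked after their values were seen. One listed symbol, dld, is the Notch ligand deltaD in zebrafish and was dropped.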

Additional observations from a re-analysis of the deposited data

Results flagged for a closer look

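In pineal at 1 to 2 years by night, replicate 3 had a gapdh level of 12.35 on the log2 scale, far from the other 3 arrays of its group at 8.71 to 9.12. Its gap to the nearest array was 0.887 of the group's range, above the critical 0.829. Of 27 sets of 4 or more arrays examined for the 3 genes, 1 held such an array, and chance gives about 1 in 20. The summed muscle markers on that array were 7841, and their part in its gapdh level was not tested.

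By adjusted p alone, the change from larvae to adults differed between pineal and brain for gapdh, by 5.20 (limma, adjusted p = 7.09e-18), and for eno1a, by -0.99 (adjusted p = 1.72e-05). The eno1a difference, at 1.98-fold, stayed under the 2-fold limit and was not called. The tissue difference varied over the 5 ages for gapdh (F = 48.2, adjusted p = 5.01e-16) and for eno1a (F = 6.98, adjusted p = 0.000734), in an F-test that 27.9% of all probe sets passed.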

How the results depend on the processing

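Of 57 values of the 3 genes, 38 kept their direction and their side of the threshold under every setting run for them, which was 12 settings, or 11 for the 12 values that use all arrays of both tissues. Numbers in this paragraph are log2 differences unless named as adjusted p. Leaving out the 11 arrays of GAPDH ratio over 3, which left lone arrays in some groups that were assumed to vary like the others, gave for aldoca -1.02 between tissues at 3 months, 0.76 from larvae to adults in brain, 0.23 in pineal against brain, and 0.093 for night in brain. It gave for gapdh 0.16 for night in pineal, 0.36 for night in pineal at 10 days, -0.067 in brain and 0.23 between tissues, and for eno1a -0.30 for night in brain and -0.23 between tissues. The ratio as covariate gave 0.96 for aldoca from larvae to adults in brain, and for eno1a at night -0.32 in brain and -0.22 between tissues. Array weights gave for gapdh at night 0.024 in pineal, -0.25 at 5 days and 0.063 at 10 days, -1.02 for the eno1a change in pineal against brain, and an adjusted p of 0.00773 for the variation of aldoca with age. Median centring gave for eno1a -0.11 from larvae to adults in pineal, -1.25 in pineal against brain, and at night -0.55 in brain and -0.071 between tissues, and -0.0083 for gapdh at night in pineal at 3 months. No scaling gave 1.16 for aldoca from larvae to adults in pineal and 0.085 in pineal against brain, and for eno1a at night -0.54 in brain and -0.076 between tissues. A constant of 1 gave -1.35 (adjusted p = 0.0718) for aldoca between tissues at 3 months and -0.00067 for eno1a at night between tissues. A constant of 64 gave for aldoca 0.92 from larvae to adults in brain, 0.51 for night in pineal, and an adjusted p of 0.0327 for variation with age. The fit of pineal arrays alone kept 0.86 for aldoca at night (adjusted p = 0.14). Leaving out the 3 pineal arrays of raised muscle markers gave 0.95 for gapdh at 1 to 2 years, -0.027 for gapdh at night in pineal at 3 months, and 0.84 for aldoca at night in pineal. The causes were not tested.

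With each of 69 arrays left out in turn, gapdh between tissues at 1 to 2 years ran from 0.95 to 1.56, gapdh at night in pineal from -0.25 to 0.046, and the same at 5 days from -0.26 to 0.36, at 10 days from -0.62 to 0.29 and at 3 months from -0.16 to 0.38. For aldoca the range was -1.63 to -1.00 between tissues at 3 months, 0.93 to 1.14 from larvae to adults in brain, and 0.72 to 0.97 at night in pineal, with -0.090 to 0.60 at 5 days and -0.29 to 0.97 at 3 months. Its adjusted p for variation with age ran from 0.0333 to 0.14. For eno1a it was -1.07 to -0.92 in pineal against brain and -0.081 to 0.085 at night between tissues.

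Pairing by replicate number was taken as not given, since not every pair correlated above 0.1. Over 31 pairs of pineal and brain with the same age, time and number, 11 correlated above 0.1 in their deviations from the group means (median 0.07), and 20 correlated best with their own number, a hint from the data and not the design. At 1 to 2 years 5 of 6 pairs were above 0.1. With number as a fixed replicate block within age, eno1a at night between tissues was -0.020, aldoca at night in pineal at 1 to 2 years 1.78 (adjusted p = 0.0361), and the variation of aldoca with age had an adjusted p of 0.00463, or 0.0391 with a random block. The block changed no other call of the 3 genes. With the fixed block 252 probe sets were called for night in brain, against 143.

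Over the settings, the number of called probe sets moved by over 1.5 times for these comparisons. For pineal against brain it was 803 against 517 at 5 days (compared arrays alone) and 564 against 357 at 10 days (constant of 64), and from larvae to adults in brain 1797 against 1187 (constant of 64). For night against day in brain it was 143 against 38 to 1451, between tissues 20 against 9 to 87, and in pineal over the ages 409 against 235 (pineal arrays alone). At the single ages in pineal it was 201 against 60 to 479 at 3 days, 65 against 32 to 92 at 5 days, 91 against 16 to 125 at 10 days, 39 against 20 to 107 at 3 months, 65 against 29 to 127 at 1 to 2 years, and 40 against 7 to 171 for variation with age. Without scaling, the median difference of all probe sets was 0.27 at 3 months, 0.28 at 1 to 2 years, 0.28 from larvae to adults in pineal and 0.30 in pineal against brain. It was -0.13 for the last under median centring. For the dim aldoca the tissue difference over all ages ran from -1.55 with a constant of 64 to -2.43 with 1.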
